A study of Mus musculus with 42 samples.

Results

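This account describes the pool of transfer RNAs (tRNAs) in mouse CD4+ T cells after 48 h of stimulation, set against the same kind of cells after 18 h. The members are the 4 tRNA sequencing libraries of these times, taken by their labels, out of 42 samples in the series. Each library was counted on 242 reference sequences: 220 tRNA references, 15 small nuclear or nucleolar RNAs and 7 ribosomal RNAs. Both groups were wild type, with no transgene or deletion named for them. Naive CD4+ T cells came from the spleens of mice 8 weeks old and were stimulated on plates coated with anti-CD3 (5 µg/ml) together with anti-CD28 (2 µg/ml). One group was cultured for 18 h and the other for 48 h, with 2 libraries each. The input was 200 ng of RNA shorter than 200 nt, and the library names carry AlkB, a demethylase that strips methyl groups which stop reverse transcription. The cell type could not be checked, because tRNAs and other small RNAs mark no cell type. No label tells if the pair of libraries at a time came from separate mice, so p-values measure the spread between these libraries, which may be technical.

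A tRNA carries an amino acid to the ribosome and reads a codon with its anticodon. tRNAs that share an anticodon are called isoacceptors here, and the different gene sequences behind 1 anticodon are its isodecoders. Once triggered through their antigen receptor and CD28, T cells leave rest, grow and divide, and protein synthesis climbs in that period. The first anticodon base, at position 34, pairs loosely with the codon and is often modified: adenosine there becomes inosine, some uridines receive groups that depend on the Elongator complex, and some guanosines become queuosine. No tRNA sequence is printed, since the tables used here pair the references with names only.

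The libraries held between 70457592 and 92701839 reads at these 2 times, of which 87.2% to 91.5% fell on tRNA references. In RPM, reads scaled to a library of 1000000 reads, the pair of 18 h libraries differed from each other more than any other replicate pair: the median reference differed by 0.18 on the log2 scale, against 0.09 to 0.12 at 0, 6 and 48 h. The tRNA share of the library was 89.5% and 91.5% at 18 h and 90.2% and 87.2% at 48 h, so the times overlapped. An exact permutation test (two-sided) gave p = 0.667 for it, where 2 against 2 libraries cannot go below 0.333. Small nuclear and nucleolar references took 3.17% and 2.42% at 18 h and 3.02% and 3.52% at 48 h, and ribosomal references 7.13% and 5.77% against 6.41% and 8.96%. Both classes overlapped between the times as well. All values are relative to the library, and fewer cells and less RNA per cell cannot be told apart in such bulk samples. Mitochondrial tRNAs were not analysed here.

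By the calls below, the pool shifted between 18 h and 48 h towards Ser-GCT, Ser-AGA and Thr-AGT. It shifted away from Thr-TGT, Arg-TCG, Arg-CCT and Trp-CCA, each change being less than 1.5 times. With the 18 h and 48 h libraries alone, 0 of these were called on the library total. At 48 h 3 isoacceptors were higher, Ser-GCT, Thr-AGT and Ser-AGA, and 4 were lower, Thr-TGT, Arg-TCG, Trp-CCA and Arg-CCT. These 7 were called among 71 units tested (49 isoacceptors and 22 other RNAs), which is 9.86%, with 4.23% higher and 5.63% lower. A call here is a Benjamini-Hochberg adjusted p under 0.05 in edgeR's quasi-likelihood test on counts, with the library totals as library sizes. The spread was shared by the 8 libraries of 0, 6, 18 and 48 h. It may be too small for the 18 h pair, which differed most. When the tRNA reads alone set the scale (tRNA scale below), the same 7 isoacceptors were called in the same directions and 5 joined them. That made 12 of 49, or 24.5%, 7 higher (14.3%) and 5 lower (10.2%), with Ser-CGA, Thr-CGT, Asn-GTT and Val-AAC added to the higher ones and Leu-TAA to the lower. DESeq2 with its own size factors called 13 units higher and 5 lower of 71. By RPM the libraries of the 2 times did not overlap for 57.7% of all units, and per 1000000 tRNA reads for 63.3% of isoacceptors.

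**Figure D1:**
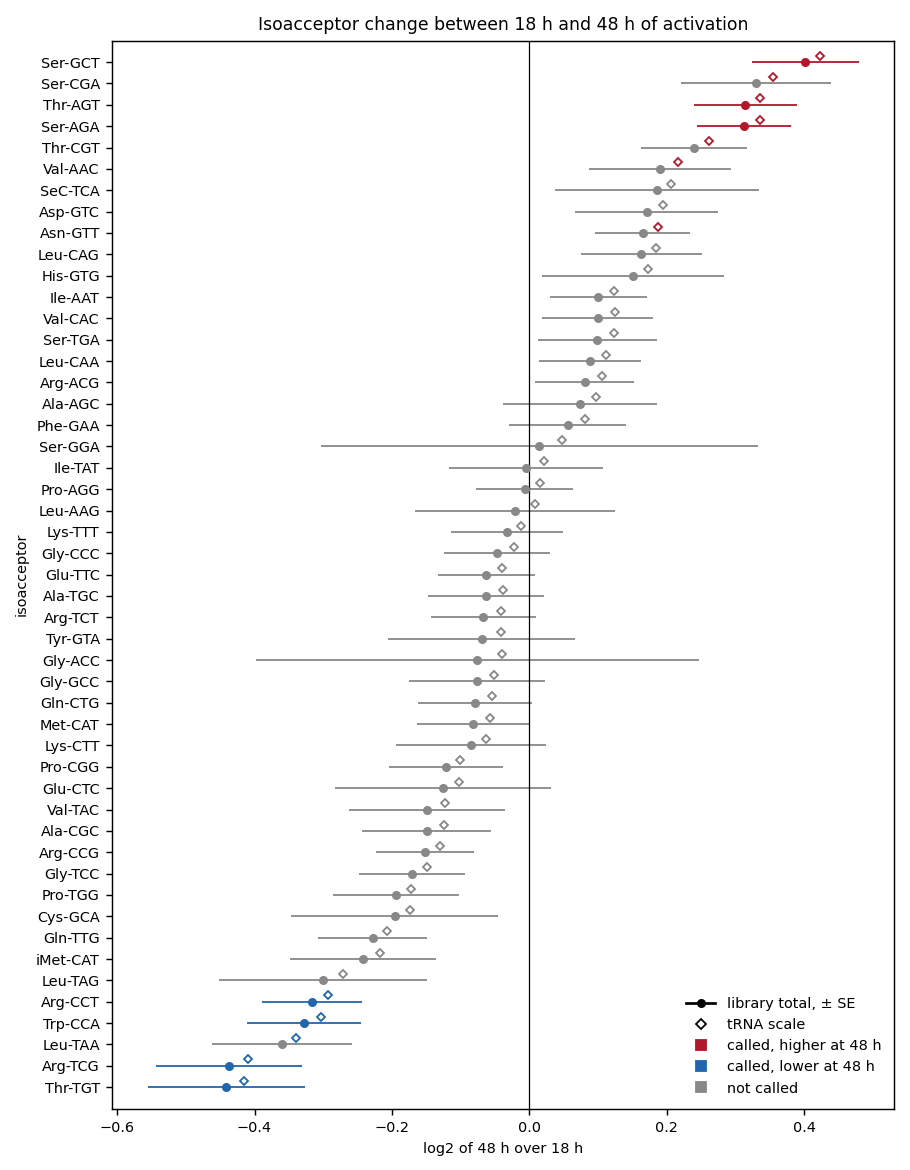
Log2 of 48 h over 18 h for the 49 isoacceptors tested (vertical axis, sorted). Filled circles with bars show the change on the library total ± SE, open diamonds the change on the tRNA scale; red and blue mark calls. Values run from -0.44 for Thr-TGT to 0.40 for Ser-GCT, and the diamonds lie slightly to the right of the circles.

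The calls on the library total lie close to the threshold, at adjusted p values of 0.0436 to 0.044 (edgeR). With 1 library left out, where the lone library of a time is assumed to vary like the other groups, edgeR called 0 isoacceptors or other units without 18 h replicate 2, without 48 h replicate 1 and without 48 h replicate 2, and 14 without 18 h replicate 1 (8 higher and 6 lower). At an unadjusted p under 0.05 these fits held 13, 21, 9 and 21 units. Fitted on the 4 libraries of 18 h and 48 h alone, edgeR also called 0, with 16 at an unadjusted p under 0.05. With replicate number as a block among all 8 libraries it called 0 as well, with 18 at an unadjusted p under 0.05. On the tRNA scale 12 isoacceptors were called with this block. All 7 kept their direction in the 18 fits run. On the tRNA scale, in fits added after the data were seen, the counts were 13 and 13 without an 18 h library, 9 without 48 h replicate 1 and 5 without 48 h replicate 2.

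Serine isoacceptors were 2 of the 3 that were higher. Their tRNAs have long variable arms, a feature they share with leucine tRNAs. Ser-GCT, which reads the AGC and AGU codons, stood at 24472 and 23070.4 RPM in the 18 h libraries and at 31833 and 30983 RPM in the 48 h libraries. Both later libraries lay above both earlier ones, as the rule for naming isoacceptors called on the library total required. The means were 23771 ± 991 and 31408 ± 601 RPM (SD, n = 2), a ratio of 1.32 and a log2 change of 0.40 (SE 0.08, edgeR adjusted p = 0.0436).

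Ser-AGA, whose first anticodon base is an adenosine that is read as inosine, stood at 12072 and 11826 RPM at 18 h and at 14466 and 15213 RPM at 48 h. The times did not overlap, and the log2 change was 0.31 (SE 0.07, edgeR adjusted p = 0.0436). Ser-CGA, which reads the UCG codon, stood at 3409 and 3675 RPM at 18 h and 4525 and 4380.2 RPM at 48 h. It missed the threshold on the library total (log2 change 0.33, edgeR adjusted p = 0.0851) and passed it on the tRNA scale (0.35, SE 0.05, adjusted p = 0.00465). Ser-TGA stood at 5785 and 6132 RPM and then at 6467 and 6298 RPM, had a log2 change of 0.10 and was called on neither scale. The same held for Ser-GGA, which lay near the filter at means of 9.5 and 9.6 RPM (log2 change 0.01). Summed over all serine references, the level was 45745 and 44716 RPM at 18 h and 57299.9 and 56884 RPM at 48 h, 26.2% more.

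Genes for these tRNAs can be placed by anticodon. RefSeq lists 402 nuclear tRNA genes on GRCm38.p6, 105 of them on chromosome 13, and 47 of the 51 isoacceptors matched at least 1. Of 8 Ser-GCT genes 4 lie on chromosome 13, for example at chr13:21492845-21492926 and chr13:23521870-23521951, and of 7 Ser-AGA genes 5 do. The 3 Ser-CGA genes lie at chr13:22022419-22022500, chr10:128458464-128458545 and chr11:69110919-69111000. The deposited references cannot be assigned to single genes, so these positions belong to the isoacceptor and not to a measured value.

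Threonine isoacceptors moved in opposite directions. Thr-AGT, read through inosine, was higher, from 18845 and 17079.7 RPM to 22749 and 21919.9 RPM, a log2 change of 0.31 (SE 0.07, edgeR adjusted p = 0.0436). Thr-TGT, which reads codons ending in A, was lower, from 12214 and 14341 RPM to 10326 and 9233 RPM, a log2 change of -0.44 (SE 0.11, edgeR adjusted p = 0.044). Neither pair of groups overlapped. Thr-CGT stood at 8149 and 7719 RPM and then at 9622 and 9114 RPM, and was called on the tRNA scale only (0.26, SE 0.07, edgeR adjusted p = 0.0171). The sum over threonine tRNAs went from a mean of 39174 ± 47.5 to 41482 ± 1718 RPM (SD, n = 2), 5.89% more. RefSeq holds 9 genes for Thr-AGT and 4 for Thr-TGT.

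Among arginine tRNAs the 2 called isoacceptors were lower. Arg-TCG fell from 9179 and 11351 RPM to 7508 and 7662 RPM (log2 change -0.44, SE 0.11, edgeR adjusted p = 0.0436). Arg-CCT, which reads the AGG codon, fell from 18299.5 and 18348 RPM to 15406 and 14034 RPM (log2 change -0.32, SE 0.07, edgeR adjusted p = 0.0436). For Arg-TCG the 18 h libraries lay apart from each other, while the 48 h libraries nearly coincided. Arg-CCG, Arg-TCT and Arg-ACG were not called on either scale, with log2 changes of -0.15, -0.07 and 0.08. Summed arginine tRNA went from 66253 and 69585 RPM to 61258 and 60094 RPM, a percent change of -10.7 between the means.

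Trp-CCA, the only tryptophan isoacceptor, fell from 15681 and 17203 RPM to 13086 and 13116 RPM. The log2 change was -0.33 (SE 0.08, edgeR adjusted p = 0.044), and the later libraries lay below both earlier ones. Leu-TAA was called lower on the tRNA scale (-0.34, SE 0.07, edgeR adjusted p = 0.00739) and missed the threshold on the library total (-0.36, SE 0.10, edgeR adjusted p = 0.062), with 6359.6 and 5942 RPM at 18 h and 4991 and 4593 RPM at 48 h. Its RefSeq genes lie at chr10:12922571-12922653, chr13:21848022-21848104 and chr19:12011086-12011168. Leucine tRNA as a whole overlapped between the times, at 80247 ± 6339 RPM and then 80089 ± 2344 RPM (SD, n = 2).

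**Figure D2:**
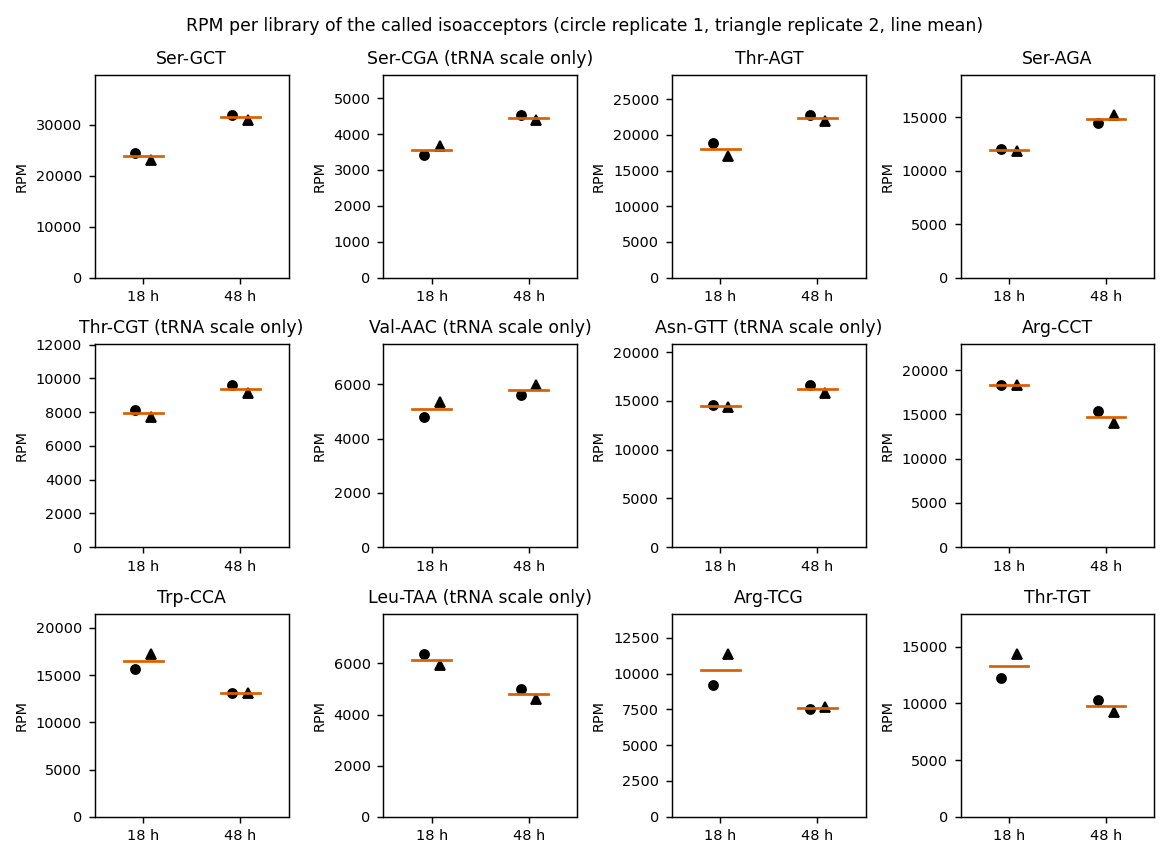
RPM (vertical axis, from 0) of the 12 isoacceptors called on either scale in the 2 libraries of 18 h and of 48 h; circles are replicate 1, triangles replicate 2, lines the means. In each panel the 48 h libraries lie on 1 side of the 18 h libraries, and the gap for Ser-GCT is from 24472 to 30983 RPM.

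The most abundant tRNAs were not called. His-GTG led with 60182 ± 4558 RPM at 18 h and 66826 ± 1720.2 RPM at 48 h (SD, n = 2), a log2 change of 0.15 (SE 0.13). Cys-GCA stood at 53301 and 56646 RPM and then at 54728 and 41264 RPM, so that 48 h replicate 2 alone lay below the rest. Glu-CTC, Pro-TGG and Gly-GCC had log2 changes of -0.13, -0.19 and -0.08. Initiator methionine tRNA, which starts every protein, stood at 25019 and 28286 RPM and then at 22530.5 and 22528 RPM (log2 change -0.24, SE 0.11, edgeR adjusted p = 0.182). Elongator Met-CAT, which adds methionine inside proteins, had a change of -0.08. Selenocysteine tRNA, which carries the amino acid selenocysteine for selenoproteins, stood at 1633 and 1374 RPM and then at 1681 and 1739.9 RPM. Its change was 0.19 (SE 0.15, edgeR adjusted p = 0.433).

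Summed by amino acid, 14 of 22 groups (63.6%) did not overlap between the times, close to the 57.7% of single units tested that did not overlap, so the count is near the background; as percent of tRNA reads it was 13 of 22 (59.1%). Among them, aspartate tRNA went from 33213 and 33409 RPM to 38560.1 and 36452 RPM, and asparagine tRNA from 14538 and 14381 RPM to 16652 and 15769.9 RPM. Glutamine tRNAs went the other way, from 46386 and 47081 RPM to 41419.5 and 43758 RPM. These sums were described and not tested.

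**Figure D3:**
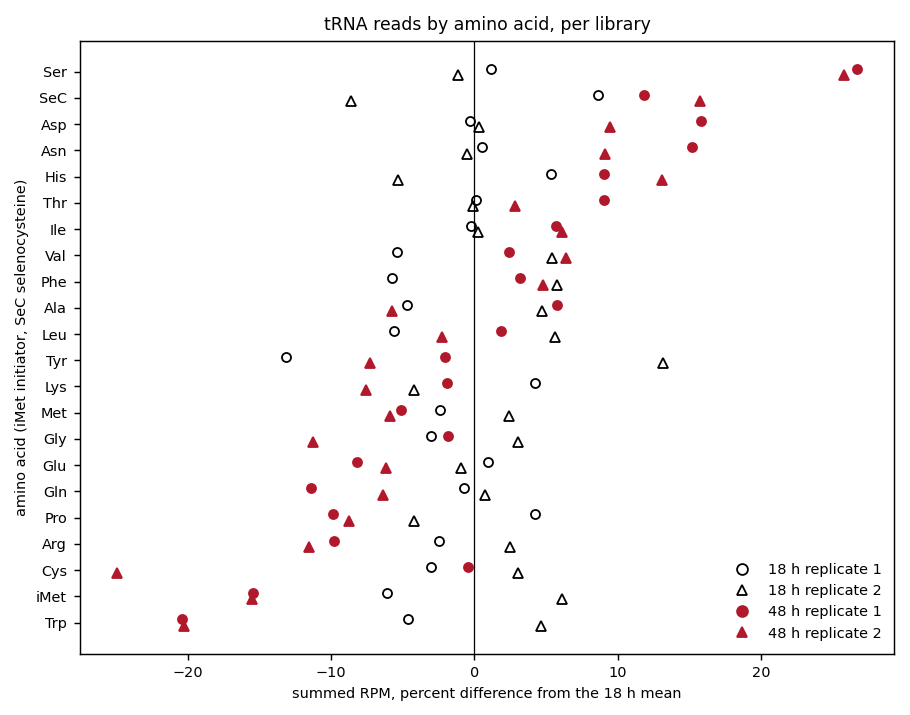
Summed RPM of each amino acid's tRNAs in each library, as a percent difference from the 18 h mean (horizontal axis); open symbols are 18 h, red symbols 48 h, circles replicate 1, triangles replicate 2. Serine stands furthest to the right, 26.2% above on average, and tryptophan furthest to the left, with a percent change of -20.3.

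Grouped by the first anticodon base, anticodons starting with A and G took a larger share of all tRNA reads at 48 h, and those with T and C a smaller one. Anticodons that start with A took 14.2% and 14.6% at 18 h and 15.8% and 16.0% at 48 h. Those that start with T took 22.1% and 22.3% and then 19.98% and 20.2%, those with C 35.2% and 34.7% and then 33.4% and 34.1%, and those with G 28.5% and 28.4% and then 30.8% and 29.7%. None of the 4 classes overlapped between the times, as was so for 63.3% of isoacceptors per tRNA read; by RPM over the library total, G did. The 4 shares add up to 100%, so they are not independent.

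By modification, 2 of the 8 isoacceptors whose adenosine 34 becomes inosine were called higher and 0 lower, namely Ser-AGA and Thr-AGT, against 3 higher and 4 lower over all 49. On the tRNA scale Val-AAC joined them, making 3 of 8 against 7 of 49, at 4790.0 and 5365 RPM and then 5598 and 5991 RPM. The median log2 change of the 8 was 0.09, against -0.06 over all 49 isoacceptors. Ile-AAT, also in this list, had 0.10 (edgeR adjusted p = 0.357).

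For uridine 34 modified through Elongator, a list of 5 isoacceptors was used: Arg-TCT, Gln-TTG, Glu-TTC, Gly-TCC and Lys-TTT. It does not hold every anticodon that starts with T. Outside it, Arg-TCG and Thr-TGT were called lower on both scales and Leu-TAA on the tRNA scale, and the other tested ones on neither. Of the 5 listed, edgeR called 0 on either scale, as did DESeq2 and limma, and 1 had an unadjusted p under 0.05. Their median log2 change was -0.07, close to the -0.06 over all 49 isoacceptors, of which 19 lay above 0. All 5 lay below 0 on both scales with all libraries, and Arg-TCT turned to 0.0047 on the tRNA scale without 48 h replicate 1. Gln-TTG had -0.23 (edgeR adjusted p = 0.0899), with 18543 and 16865 RPM and then 14707 and 15521 RPM, and Gly-TCC had -0.17. Of the 4 queuosine isoacceptors edgeR called 0 on the library total, with 1 at an unadjusted p under 0.05; limma also called 0, and DESeq2 called 1. On the tRNA scale Asn-GTT was called higher (0.19, SE 0.05, adjusted p = 0.0322). Asp-GTC had a log2 change of 0.17, His-GTG 0.15 and Tyr-GTA -0.07.

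Over all 49 isoacceptors 3 were higher and 4 lower on the library total, with a median log2 change of -0.06. By amino acid class, 2 of 8 isoacceptors for basic amino acids were lower (Arg-TCG and Arg-CCT). Of 10 Leu and Ser isoacceptors, listed for their long variable arms, 2 were higher, with a median log2 change of 0.09. This list holds Ser-GGA, whose 1 RefSeq gene is 73 nt long, against a median of 82 nt for Ser-AGA genes. It may therefore not belong there. Of 19 for small amino acids 3 were higher and 1 lower, and of 3 aromatic ones 1 was lower. No acidic, amide or branched-chain isoacceptor was called on the library total by edgeR, with 0, 2 and 1 at an unadjusted p under 0.05. DESeq2 called 0, 1 and 1 of these, and limma 0. On the tRNA scale Val-AAC was called higher and Leu-TAA lower among the 10 branched-chain isoacceptors. Asn-GTT was called higher among the 3 amide ones, and 0 of the 3 acidic ones were called. On that scale 5 small ones were higher and 1 lower, and 3 Leu and Ser ones higher and 1 lower. Over all 49 there were 7 higher and 5 lower. The basic and aromatic counts stayed as above. Anticodons starting with A or T had 2 higher and 2 lower of 24, those starting with C or G 1 higher and 2 lower of 25.

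The methyl mark m1A at position 58 was read in a separate assay at 6 h, in wild type and Trmt61a cKO cells; Trmt61a catalyses the placing of this mark. The authors' deposited table gives 1 value per genotype, which for the 7 called isoacceptors lay between 86.6% (Trp-CCA) and 96.3% (Ser-AGA) in wild type. Of the 5 isoacceptors with the largest m1A loss there, Thr-AGT was higher at 48 h on both scales and Leu-TAA lower on the tRNA scale. Of the 5 with the smallest loss, edgeR called 0 on both scales, DESeq2 and limma called 0, and 0 had an unadjusted p under 0.05. Across the 44 isoacceptors in both tables, the wild type m1A level and the log2 change had a Pearson r of 0.20 and a Spearman rho of 0.29, given as a description of points that share their libraries. The number of RefSeq genes had an r of -0.01 with the log2 change over 47 isoacceptors, but an r of 0.57 with the mean RPM. Genes were matched by the anticodon in their names, so all 16 methionine genes were counted for elongator Met-CAT. Initiator methionine genes were not set apart.

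At the level of single references more calls were made. Of 190 references tested, 32 were called (16.8%), 23 higher (12.1%) and 9 lower (4.74%). Among the 168 tRNA references, 20 were higher and 9 lower, and the other 52 tRNA references, which summed to 94.6 and 196 RPM at 18 h and 99.9 and 145.6 RPM at 48 h, were too low to test. On the tRNA scale 44 of 168 were called (26.2%), 30 higher (17.9%) and 14 lower (8.33%), and 26 references were called on both scales in the same direction. The libraries of the 2 times did not overlap for 60.5% of references by RPM, and for 63.1% of tRNA references per 1000000 tRNA reads. The count on the library total again depended on single libraries: edgeR called 1 reference without 48 h replicate 1 and 1 without 48 h replicate 2, with 58 and 42 at an unadjusted p under 0.05. On the tRNA scale 33 and 19 were called without them. Without 18 h replicate 2 there were 23 higher and 3 lower, and without 18 h replicate 1 there were 21 higher and 18 lower.

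Ser-GCT-3 had the smallest adjusted p. It stood at 998 and 974 RPM at 18 h and at 2062 and 2003 RPM at 48 h, with each pair close together and a wide gap between them. The ratio was 2.06, the log2 change 1.04 (SE 0.08, edgeR adjusted p = 0.000433), and it was called in all 18 fits run. By serine reference, 8 of 13 tested were higher and 0 lower, against 23 higher and 9 lower of 190 over all references. Threonine references had 5 higher and 1 lower of 14 tested, and alanine references 3 higher and 1 lower of 17. The main Ser-GCT reference, Ser-GCT-4, rose with a log2 change of 0.40, and Ser-AGA-2, which holds nearly all Ser-AGA reads, with 0.31. The main references of Thr-AGT and Trp-CCA were not called. Thr-AGT-1 had a log2 change of 0.27 (edgeR adjusted p = 0.0747) and Trp-CCA-5 of -0.39 (edgeR adjusted p = 0.0655).

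Some scarce references had larger ratios. Ala-AGC-3 stood at 90.7 and 151 RPM and then at 325 and 302 RPM, a log2 change of 1.37 (SE 0.24, edgeR adjusted p = 0.0207). Val-CAC-3 stood at 57.0 and 71.5 RPM and then at 135 and 141 RPM (ratio 2.14, edgeR adjusted p = 0.024). Their isoacceptors Ala-AGC and Val-CAC were not called, and each of these references is a small part of its anticodon. Within Ala-AGC, Ala-AGC-6 was also called higher (log2 change 0.39, edgeR adjusted p = 0.024). The main reference, Ala-AGC-4, had -0.06 and was not called. Ser-CGA-3 rose from 139 and 150.0 RPM to 268 and 280.1 RPM, and Arg-TCT-5 from 344 and 392 RPM to 539 and 595 RPM.

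The 9 lower references belong to 6 isoacceptors. Of the 4 Arg-TCG references 3 fell, Arg-TCG-4 from 1638 and 1773 RPM to 1112 and 1153 RPM (log2 change -0.59, SE 0.08, edgeR adjusted p = 0.0138), Arg-TCG-2 with -0.64 and Arg-TCG-1 with -0.50. Arg-TCG-3 was not called, at 2089 and 2348 RPM and then 2105 and 2127 RPM (log2 change -0.07, edgeR adjusted p = 0.618). Leu-TAA-1 fell from 1582 and 1595 RPM to 1134 and 1075 RPM (log2 change -0.52, SE 0.08, edgeR adjusted p = 0.0138), and Trp-CCA-2 from 4994 and 5454 RPM to 3631 and 3713 RPM. Arg-CCT-1, Arg-CCT-4, Thr-TGT-3 and Ala-CGC-2 complete the set.

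In 2 anticodons references were called in opposite directions. Ala-CGC-1 rose from 2259 and 2652 RPM to 3293 and 3090.5 RPM, while Ala-CGC-2 fell from 5244 and 5868 RPM to 4231 and 3833 RPM. Ala-CGC as a whole had a log2 change of -0.15 and was not called. Thr-TGT-1 rose from 385 and 385 RPM to 578 and 548 RPM, against the fall of Thr-TGT-3 from 6926 and 8245 RPM to 5499 and 4922 RPM.

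The share of each reference within its anticodon does not depend on the library size. It was fitted with limma on log2 shares for 161 references of 42 anticodons that have at least 2 tested. The share changed for 58 of them (36%), with 38 higher (23.6%) and 20 lower (12.4%). The calls fell in 25 anticodons, and 18 of these had references called both ways. Shares of 1 anticodon add up to 100%, so a higher share of one reference lowers that of others by construction. How reads that match several references were counted is not given, so references alike in sequence may share reads. Ala-TGC-2 and Ala-TGC-3 had nearly equal levels in every library. Each had a mean share of 42.5% at 18 h and 40.5% at 48 h. Both were called lower, so their calls are not independent.

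The calls were sorted by abundance over the 2 times. The most abundant reference of an anticodon had a lower share in 13 anticodons and a higher one in 4, and was not called in 25. Of the 119 less abundant references 34 had a higher share and 7 a lower one. Ala-TGC-3 is among the 13, and Ala-TGC-2, nearly equal to it in level, among the 7. The higher and lower counts were 38 and 20 with all libraries, 34 and 24 without 18 h replicate 1, 47 and 24 without 18 h replicate 2, 23 and 18 without 48 h replicate 1, and 20 and 15 without 48 h replicate 2.

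**Figure D4:**
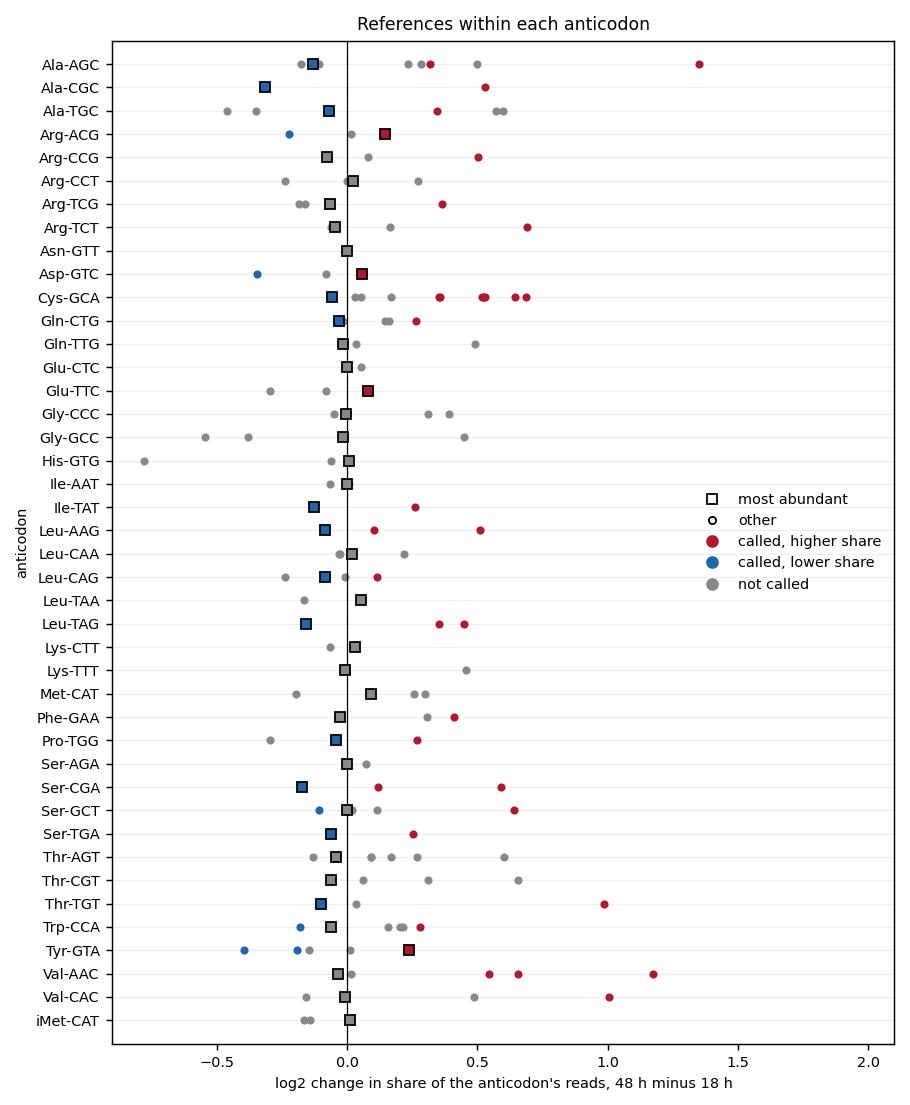
Log2 change in the share of the anticodon's reads, 48 h minus 18 h (horizontal axis), for 161 references in 42 anticodons (vertical axis). Squares mark the most abundant reference and circles the others; red and blue mark calls. Most blue symbols are squares just left of 0, 13 in all, and the red circles reach 1.35 for Ala-AGC-3.

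Nearly all Ala-CGC reads fell on 2 references. Ala-CGC-1 took 30.1% and 31.1% of the anticodon's reads at 18 h and 43.8% and 44.6% at 48 h, a log2 change in share of 0.53 (SE 0.04, limma adjusted p = 0.000427). Ala-CGC-2 took the remainder and fell from a mean of 69.4% ± 0.738 to 55.8% ± 0.62 (SD, n = 2). At 0 and 6 h Ala-CGC-1 had held 17.0% ± 0.672 and 17.1% ± 0.473 (SD, n = 2).

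In other anticodons, too, shares were called in both directions. Within Leu-AAG, Leu-AAG-3 rose from 5.93% and 6.01% to 8.42% and 8.59% of the reads (log2 change in share 0.51, SE 0.03, limma adjusted p = 0.000336), while Leu-AAG-1 fell from 72.3% in both libraries to 68.5% and 67.9%. The Leu-AAG total had a log2 change of -0.02. Within Tyr-GTA, Tyr-GTA-3 fell from 36.3% and 35.8% to 31.6% and 31.5% (-0.19, SE 0.01, limma adjusted p = 0.000427), and Tyr-GTA-1 rose from 31.5% and 32.7% to 37.5% and 38.3%. That made Tyr-GTA-1 the leading reference of its anticodon at 48 h, where Tyr-GTA-3 had led at 18 h.

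Thr-TGT-1, Arg-TCT-5 and Ser-GCT-3 stayed minor parts of their anticodons. Thr-TGT-1 took 3.15% and 2.68% at 18 h and 5.59% and 5.94% at 48 h (log2 change in share 0.99, SE 0.10, limma adjusted p = 0.00154). Arg-TCT-5 took 3.80% and 4.03% and then 6.15% and 6.47%, and Ser-GCT-3 took 4.08% and 4.22% and then 6.48% and 6.46%. In all 3 both 48 h libraries lay above both 18 h libraries, which their choice by low p in this fit makes likely.

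The share fit also held references of isoacceptors called above. Trp-CCA-2 fell from 31.8% and 31.7% of Trp-CCA reads to 27.7% and 28.3% (log2 change in share -0.18, limma adjusted p = 0.00172), and Trp-CCA-4 rose from 7.05% and 6.98% to 8.30% and 8.72%. Arg-TCG-3, the reference not called by level, rose from 22.8% and 20.7% of its anticodon to 28.04% and 27.8%. Ser-CGA-1, the leading Ser-CGA reference, fell from 53.0% and 51.8% to 47.4% and 45.7% (-0.17, limma adjusted p = 0.00841). In each case the libraries of the 2 times did not overlap, but these references were chosen by or after their values, so this adds no support. Within Ser-AGA, by contrast, Ser-AGA-2 held 96.9% to 97.6% in the 4 libraries and its share was not called.

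**Figure D5:**
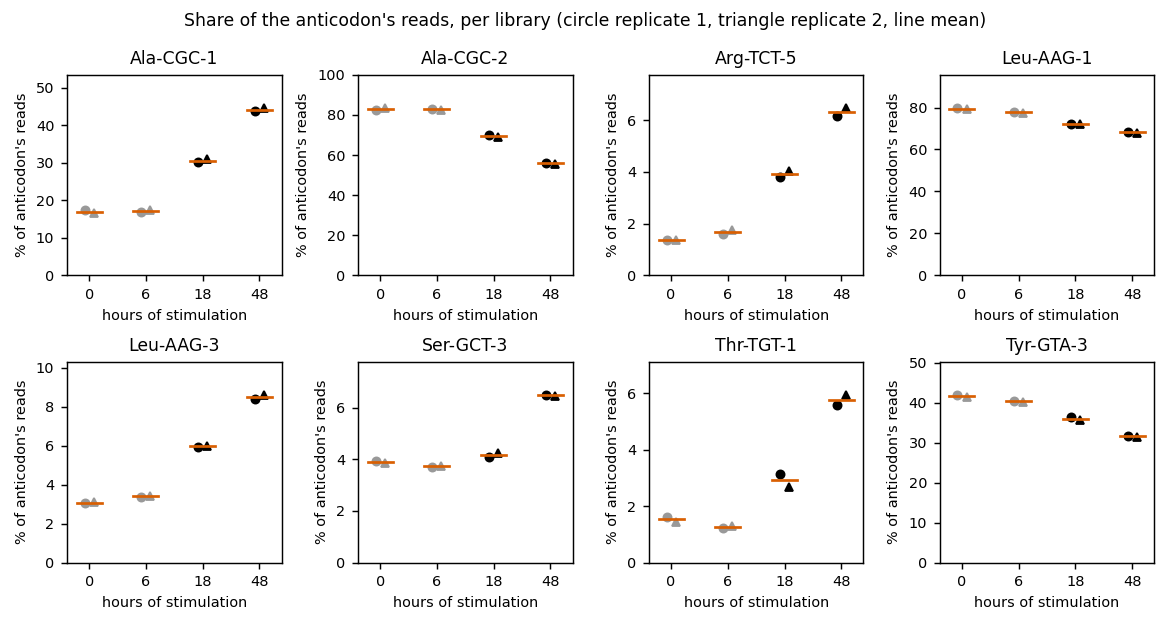
Share of the anticodon's reads (vertical axis, percent, from 0) at 0, 6, 18 and 48 h for the 8 references with the smallest adjusted p in the share fit; circles are replicate 1, triangles replicate 2, lines the means, and black marks 18 h and 48 h. Ser-GCT-3 stays between 3.70% and 4.22% up to 18 h and reaches 6.48% at 48 h, while Ala-CGC-1 already differs at 18 h.

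Means per 1000000 tRNA reads were set beside those of the earlier times. Ser-GCT had 28608 ± 733 before stimulation, 30008 ± 422 after 6 h, 26285 ± 1508 after 18 h and 35412 ± 196 after 48 h (SD, n = 2), so on this scale its 18 h mean was the lowest. By RPM the order differed, and the tRNA share of the library was 66.7% at 0 h. Ser-GCT had 19078 ± 476, 25529.9 ± 1237, 23771 ± 991 and 31408 ± 601 RPM (SD, n = 2), with 0 h the lowest. Thr-AGT per tRNA read had its lowest mean at 18 h (19866 ± 1692) and its highest at 48 h (25179.7 ± 39.5), but by RPM its lowest was 15042 ± 402 at 0 h. Arg-CCT per tRNA read had means of 17030.2 ± 161 at 0 h, 20255 ± 281 at 18 h and 16587 ± 684 at 48 h, while by RPM it had 11357 ± 115 at 0 h and 14720.2 ± 969.8 at 48 h. Ser-CGA per tRNA read had successive means of 3623, 3804, 3914 and 5019.9. These comparisons share the 18 h libraries and are given as values only.

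Among the 22 other RNAs, 3 were called in the fit of the 190 references, all of them higher: Rnu3b1, Rnu3b2 and Rnu3b3. None of these 3 was called in the fit of the 71 units that gave the isoacceptor calls, where the same counts had edgeR adjusted p values of 0.0851, 0.0899 and 0.0851. They are copies of U3, a small nucleolar RNA that guides early cuts of the ribosomal RNA precursor, and lie on chromosome 11, for example at chr11:87443237-87443451 for Rnu3b1. Rnu3b1 stood at 232 and 158 RPM at 18 h and at 298 and 364 RPM at 48 h, a log2 change of 0.76 (SE 0.21 and edgeR adjusted p = 0.0453 among references, SE 0.25 and 0.0851 among units). The counts of these copies were nearly equal in every library, so reads cannot be assigned to 1 copy and the 3 calls are not independent. Rnu3b4 and Rnu3a had log2 changes of 0.68 and 0.49 and missed the threshold in both fits.

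The 5.8S ribosomal RNA stood at 981 and 1178 RPM and then at 1600.2 and 1831 RPM, and also missed it (log2 change 0.67, edgeR adjusted p = 0.0533 among references and 0.0851 among units). The U2 reference Rnu2-10, a part of the spliceosome, stood at 16461 and 10058 RPM and then at 16321 and 17078 RPM, and only 18 h replicate 2 lay apart. The 45S precursor, 18S, 28S and 5S references had log2 changes between 0.05 and 0.34, none called. The 45S precursor contains the 18S, 28S and 5.8S sequences, and 2 of the 5S references, n-R5s146 and n-R5s113, had nearly equal levels, so these values are uncertain. Near-equal levels also occurred for Asp-GTC-1 and Asp-GTC-1-, and how reads that match several references were counted is not given in the sources used here.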

How the data were processed

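The authors deposited, per library, read counts and RPM (reads scaled to a library total of 1000000) on 242 references. Per the submitters' processing notes the build was mm10. Those notes name Bowtie2 (2.4.1), featureCounts (1.5.0-p3), HISAT2 (2.0.5) and Trim Galore (0.6.6) with no assay, and the names of the deposited tables carry BWA. The deposited m1A table gives percent levels, coverage as counts, their difference as a score and a ratio per isoacceptor, with no values per replicate. Library totals, recovered from counts and RPM, were 70457592 to 92701839 reads at 18 h and 48 h.

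Counts were summed per anticodon, initiator methionine apart. Units with a mean of at least 10 RPM over 8 libraries were fitted with edgeR 4.0.16 (quasi-likelihood, Benjamini-Hochberg). The tRNA scale used tRNA reads as library size with TMM. Shares used limma 3.58.1 on log2 of (reads + 0.5) ratios, with Benjamini-Hochberg adjustment. Alternatives were DESeq2 1.42.0, limma on log2(RPM + 1) or (RPM + 10), other filters, fewer libraries, a replicate block and leaving out each library. The fits were also run on simulated data with the same spread at every time. The 18 h pair was more variable than the others, so that run does not cover its case. Isoacceptors and references named were the 8 highest and 8 lowest called at a mean of at least 100 RPM with no overlap, the 5 most abundant isoacceptors, methionine and selenocysteine tRNAs, the most abundant reference of each, the 8 references with the lowest p in the share fit, up to 10 other RNAs by RPM and up to 4 members per list. Others, such as Arg-TCG-3, Trp-CCA-4, Tyr-GTA-1, Ser-CGA-1, Rnu3b4 and 5.8S, were chosen after their values were seen. Members and lists were chosen with earlier results of these data known. Gene positions come from RefSeq, GRCm38.p6, the same assembly as mm10.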

Additional observations from a re-analysis of the deposited data

How the results depend on the processing

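Depth was high in each library, so the 2 libraries per time limit precision more than counting does. Of the single isoacceptors and references named, 1056 values under an alternative kept direction and side of the threshold, 134 lost the call and 50 gained it. The sign turned in 24, which passed the threshold neither before nor after, for example Tyr-GTA, Leu-AAG-1, Ala-TGC and Rnu5g with 1 library left out; no called value changed sign. The count of isoacceptors and other units called was 7; it was 12 on the tRNA scale, 18 with DESeq2 and 0 with the 4 libraries of 18 h and 48 h alone (16 at an unadjusted p under 0.05), where edgeR has fewer samples. Leaving out 1 library gave 0 to 14, and on the tRNA scale, added after seeing the data, 5 to 13. References called numbered 32, and 50 with DESeq2, 1 with the 4 libraries alone and 1 to 39 with 1 library left out; on the tRNA scale that range was 19 to 55. Shares called numbered 58, and 30 with the 4 libraries alone; leaving out 1 library gave 35 to 71. The labels do not say that equal replicate numbers pair samples: deviations of same-numbered libraries of 18 h and 48 h had r = 0.54, and other pairs of times -0.27 to 0.44. With a replicate block, 0 isoacceptors and other units were called by edgeR (18 at an unadjusted p under 0.05), 26 references and 59 shares; on the tRNA scale with the block 12 isoacceptors and 55 references were called. Among the called, 42.9% of isoacceptors were higher on the library total, 58.3% on the tRNA scale and 72.2% with DESeq2; for references these shares were 71.9%, 68.2% and 62.0%. The cause of these shifts was not tested.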
